A study of Mus musculus with 2 samples.

Results

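The sarcoplasmic reticulum calcium release unit was described through 8 genes named by symbol, Ryr2, Trdn, Asph, Casq2, Hrc, Srl, Jph2 and Fkbp1b, all of which were among the 27999 features counted. Their transcripts were counted in single droplets from the right ventricle of C57/BL6J mouse pups that were homozygous for floxed CBP, p300 and Trap alleles, the last spelled trap for 1 of the samples. AAV9, an adeno-associated virus that reaches the heart, was given at postnatal day 1 to knock out p300 and CBP, and tissue was collected at postnatal day 21. Both libraries have this genotype, treatment and age, so there is 1 group of 2 libraries and no control, and nothing below compares knockout with control. The labels give neither the promoter or cargo of the virus nor the number of animals behind a library. The p-values rest on how far differences between groups of cells vary over these 2 libraries, with spread shared over genes and over the groups in a fit. They need not carry the whole difference between the libraries for a given gene. The shift common to a library is taken out, and the spread that is left may be technical. Frozen tissue was digested with collagenase and passed over beads for CD45-positive cells, per the labels' protocols. Those protocols speak of cells, yet ventricular cardiomyocyte-like cells made up 69.0% of kept cells in library 1 and 26.4% in library 2 after the CD45 step, and whether droplets held whole cells or nuclei was not tested, which limits what the levels below stand for.

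In heart muscle, calcium that enters through L-type channels opens ryanodine receptors on the facing membrane of the sarcoplasmic reticulum, and the calcium they release starts contraction. Ryr2 encodes that channel, and FKBP12.6, the product of Fkbp1b, binds its cytosolic side. Triadin (Trdn) and junctin, a short product of the Asph locus, hold the channel to calsequestrin (Casq2), the main calcium buffer inside the reticulum. The histidine-rich calcium-binding protein (Hrc) and sarcalumenin (Srl) also bind calcium in the lumen, and junctophilin 2 (Jph2) ties the reticulum to the cell membrane so that the channels face each other across a narrow cleft. Asph also encodes an aspartate hydroxylase that is used outside muscle, and a count for the gene does not tell these products apart.

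The genes lie on 8 different chromosomes of GRCm38 and differ widely in size. Ryr2 (ENSMUSG00000021313) covers 554 kb on the minus strand of chromosome 13, from 11553102 to 12106945, with 105 exons in its principal transcript. Trdn (ENSMUSG00000019787) covers 396 kb on the plus strand of chromosome 10, from 33080554 to 33476709, and Asph (ENSMUSG00000028207) 221 kb on the minus strand of chromosome 4, from 9448069 to 9669344. Casq2 (ENSMUSG00000027861) lies on the plus strand of chromosome 3 from 102086415 to 102146514, Srl (ENSMUSG00000022519) on the minus strand of chromosome 16 from 4480216 to 4541816, and Jph2 (ENSMUSG00000017817) on the minus strand of chromosome 2 from 163336242 to 163397993. Hrc (ENSMUSG00000038239) is short, 3.69 kb with 6 exons on the plus strand of chromosome 7, from 45335290 to 45338974. Fkbp1b (ENSMUSG00000020635) covers 8.42 kb on the minus strand of chromosome 12, from 4833174 to 4841591. One end of Asph overlaps Clvs1, a gene on the other strand that is also in the count table, and the sources used here do not give whether reads were assigned by strand.

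RefSeq promoters on GRCm38.p6, 250 bases before and 50 after a start, were matched for 5 of the genes, Ryr2, Casq2, Hrc, Jph2 and Fkbp1b. Those of the channel, of its main luminal buffer and of Hrc are shown because these genes behaved differently in the results that follow. They are chr13:12106896-12107195 on the minus strand for Ryr2, chr3:102086165-102086464 on the plus strand for Casq2 and chr7:45335019-45335318 on the plus strand for Hrc, each written 5′ to 3′ with motif matches in capitals.
Ryr2: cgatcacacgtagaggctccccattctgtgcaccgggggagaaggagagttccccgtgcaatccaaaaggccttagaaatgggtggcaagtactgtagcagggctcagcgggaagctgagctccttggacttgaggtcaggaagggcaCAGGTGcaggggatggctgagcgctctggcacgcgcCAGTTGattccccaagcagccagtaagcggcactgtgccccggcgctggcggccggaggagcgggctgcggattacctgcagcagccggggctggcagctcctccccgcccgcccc
Casq2: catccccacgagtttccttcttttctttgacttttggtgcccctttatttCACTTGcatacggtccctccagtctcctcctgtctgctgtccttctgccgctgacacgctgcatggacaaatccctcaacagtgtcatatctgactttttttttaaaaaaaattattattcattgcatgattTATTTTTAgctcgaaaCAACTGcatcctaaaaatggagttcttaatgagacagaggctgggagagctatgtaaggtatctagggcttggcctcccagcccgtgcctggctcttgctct
Hrc: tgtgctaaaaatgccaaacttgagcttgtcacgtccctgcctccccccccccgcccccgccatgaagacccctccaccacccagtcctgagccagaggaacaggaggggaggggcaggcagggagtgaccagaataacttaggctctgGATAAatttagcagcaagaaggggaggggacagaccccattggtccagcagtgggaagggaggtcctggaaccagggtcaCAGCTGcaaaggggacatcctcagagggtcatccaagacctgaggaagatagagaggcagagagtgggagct
Both strands were searched for the GATA motif GATAA, the M-CAT motif CATTCC, the MEF2 core TAAAAATA, the E-box motif CANNTG, the TATA box motif TATAAA and, by its consensus, the CArG box. The Casq2 promoter held 1 MEF2 core on the opposite strand and 2 E-boxes, that of Ryr2 2 E-boxes, and that of Hrc 1 GATAA and 1 E-box. Among all 32851 RefSeq promoters of this length, 2.72% held the MEF2 core, 25.4% GATAA and 72.3% an E-box. The GC content was 65.3% in the Ryr2 promoter, 44.7% in that of Casq2 and 58.7% in that of Hrc, beside a median of 52.7% over all promoters. These matches describe letters in a window and nothing more.

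Library 1 held 57982200 UMIs in 12736 barcodes and library 2 held 50199793 in 9447, and 17 barcode sequences occurred in both. After filtering and doublet removal 19241 cells were kept. Ventricular cardiomyocyte-like cells numbered 7582 in library 1 and 2176 in library 2, with medians of 4299 and 7320 UMIs. They are the clusters named from cardiomyocyte markers that did not meet the rule for atrial-type cells. The list of ventricular markers was not used to name them. A cluster led by Nppa, Myl4, Sln and Myl7 gave 78 and 7 atrial-type cells. The 6 non-myocyte classes large enough to test were fibroblast-like, endothelial-like, endocardial-like, pericyte-like, macrophage-like and epicardial or mesothelial-like cells. All 12 cardiomyocyte markers, none of them at 0, were counted in each of these classes, at 15.7% to 29.2% of their summed ventricular level in library 1 and 3.73% to 7.98% in library 2. The part of this cardiomyocyte RNA in the values of non-myocytes was not tested, so each gene's level is set beside the marker share.

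All 7 genes that could be tested were higher in ventricular cardiomyocyte-like cells, set against the mean of 6 non-myocyte classes. In these 6 classes the level of each gene lay below the ventricular level of the same library. Ranges given below for non-myocytes cover these 6 classes and leave out smaller ones. Genes are called by edgeR's quasi-likelihood test on summed counts with library as a block, at a Benjamini-Hochberg adjusted p under 0.05 over 13466 genes. Of those genes 31.6% were called higher and 33.4% lower, so a call by itself sets the members little apart. Their median log2 difference was 3.58, beside a median of -0.07 over all genes tested. Values given for 1 library alone are differences of log2 CPM with 2 counts added as a prior; they are scaled to library totals and have no test, so the fitted difference need not lie between them. For each of the 7 members the values of the 2 libraries alone lay further apart than its SE. Those of Ryr2 were 2.68 and 4.79, with an SE of 0.25. The SEs and p-values of this comparison therefore do not carry the whole difference between the libraries. In the fit, scaling to library totals in place of TMM moved the median of all genes to -0.52 and the members to between 1.66 and 3.99, all still higher.

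The channel gene had the highest level of the members and is also the longest of them. Whether introns counted is not given, and the part of gene length in levels compared between genes was not tested. In ventricular cardiomyocyte-like cells Ryr2 was at 15752 CPM (counts scaled to the UMI total of the class) in library 1, and library 2 gave 19258 CPM. Non-myocyte classes held 1993 to 3698 CPM in library 1 and, in library 2, 459.6 to 1191 CPM. The lower ventricular value lies far above the highest non-myocyte value. The log2 difference was 4.44 (SE 0.25, edgeR adjusted p = 3.99e-10). Library 1 by itself gave 2.68, library 2, with its lower marker share, gave 4.79, and keeping marked doublets, which also brought lymphatic endothelial-like cells into the mean, gave 2.57. Among the 6 tested non-myocyte classes, epicardial or mesothelial-like cells had the highest mean level, and the ranges overlap from neighbour to neighbour. Smooth muscle-like cells (2955 and 4394 CPM) and Schwann or glial-like cells (5048 and 1466 CPM), too few to test, had higher means.

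Counts of Trdn and Asph differed in how far they were restricted to ventricular cardiomyocyte-like cells. An Asph count takes in the hydroxylase as well as junctin, so this does not compare the 2 anchors of calsequestrin. Trdn was at 2900.1 and 2517 CPM in ventricular cardiomyocyte-like cells of libraries 1 and 2, against 362 to 791 CPM and 85.8 to 167 CPM in the non-myocyte classes. Its log2 difference was 4.12 (SE 0.22, edgeR adjusted p = 2.15e-10), with 2.58 in library 1 alone, 4.39 in library 2 alone and 2.56 with doublets kept. Asph was at 591 and 592 CPM in ventricular cardiomyocyte-like cells, against 175 to 336 CPM in non-myocytes of library 1 and 103 to 275 CPM in those of library 2. Its difference of 2.12 (SE 0.12, edgeR adjusted p = 5.27e-10) was the smallest of the 7 members, with 1.47 in library 1 alone, 1.85 in library 2 alone and 1.61 with doublets kept. Pericyte-like cells followed the ventricular class for Asph, then fibroblast-like cells, and the 2-library ranges of these classes do not overlap each other.

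Of the luminal calcium binders, Casq2 was at 525 and 512 CPM in ventricular cardiomyocyte-like cells of libraries 1 and 2, against 78.5 to 284 CPM and 20.2 to 176 CPM in the non-myocyte classes. The top of both non-myocyte ranges was the pericyte-like class. The log2 difference of Casq2 was 3.48 (SE 0.23, edgeR adjusted p = 1.99e-09), with 2.03 in library 1 alone, 3.72 in library 2 alone and 2.36 with doublets kept. Srl was at 320.2 and 405 CPM in ventricular cardiomyocyte-like cells, against 61.2 to 92.0 CPM and 22.6 to 40.3 CPM in non-myocytes, a difference of 3.58 (SE 0.19, edgeR adjusted p = 2.14e-10). That of Srl was 2.21 in library 1 alone, 3.75 in library 2 alone and 2.37 with doublets kept. Hrc differed between the libraries more than any other tested member, at 203 CPM in ventricular cardiomyocyte-like cells of the first and 87.1 CPM in those of the second. Non-myocytes held 30.2 to 110.4 CPM of Hrc in library 1 and, in library 2, 7.84 to 19.3 CPM. The ventricular range of Hrc overlaps that of epicardial or mesothelial-like cells over both libraries, while within each library it is higher. The Hrc difference was 2.74 (SE 0.21, edgeR adjusted p = 1.05e-08), with 1.60 in library 1 alone, 2.84 in library 2 alone and 1.97 with doublets kept.

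The tether gene Jph2 was at 457 and 568 CPM in ventricular cardiomyocyte-like cells. Non-myocytes held 49.7 to 192 CPM of Jph2 in library 1 and, in library 2, 9.41 to 134 CPM, again with the pericyte-like class on top. Its log2 difference was 3.91 (SE 0.21, edgeR adjusted p = 2.03e-10), with 2.55 in library 1 alone, 4.04 in library 2 alone and 2.47 with doublets kept. The 2-library range of pericyte-like cells lies apart from those of the ventricular class and of epicardial or mesothelial-like cells, the neighbours in the order of the tested classes.

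Fkbp1b, the gene of the channel's FKBP12.6 subunit, was close to undetected and did not pass the filter on low counts. It had 6 UMIs in the 7582 ventricular cardiomyocyte-like cells of library 1 and 3 UMIs in the 2176 of library 2, or 0.156 CPM (95% exact Poisson interval 0.0574 to 0.340) and 0.163 CPM (0.0336 to 0.477). All other named classes together had 7 UMIs in library 1 and 30 in library 2, or 1.36 and 1.45 CPM. Atrial-type cells had 0 UMIs in both libraries, with exact intervals that reach 8.74 CPM in library 1 and 97.3 CPM in library 2. A 3′ count also depends on where the annotated end of a gene lies, so these counts limit what this table holds and not the protein.

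**Figure D1:**
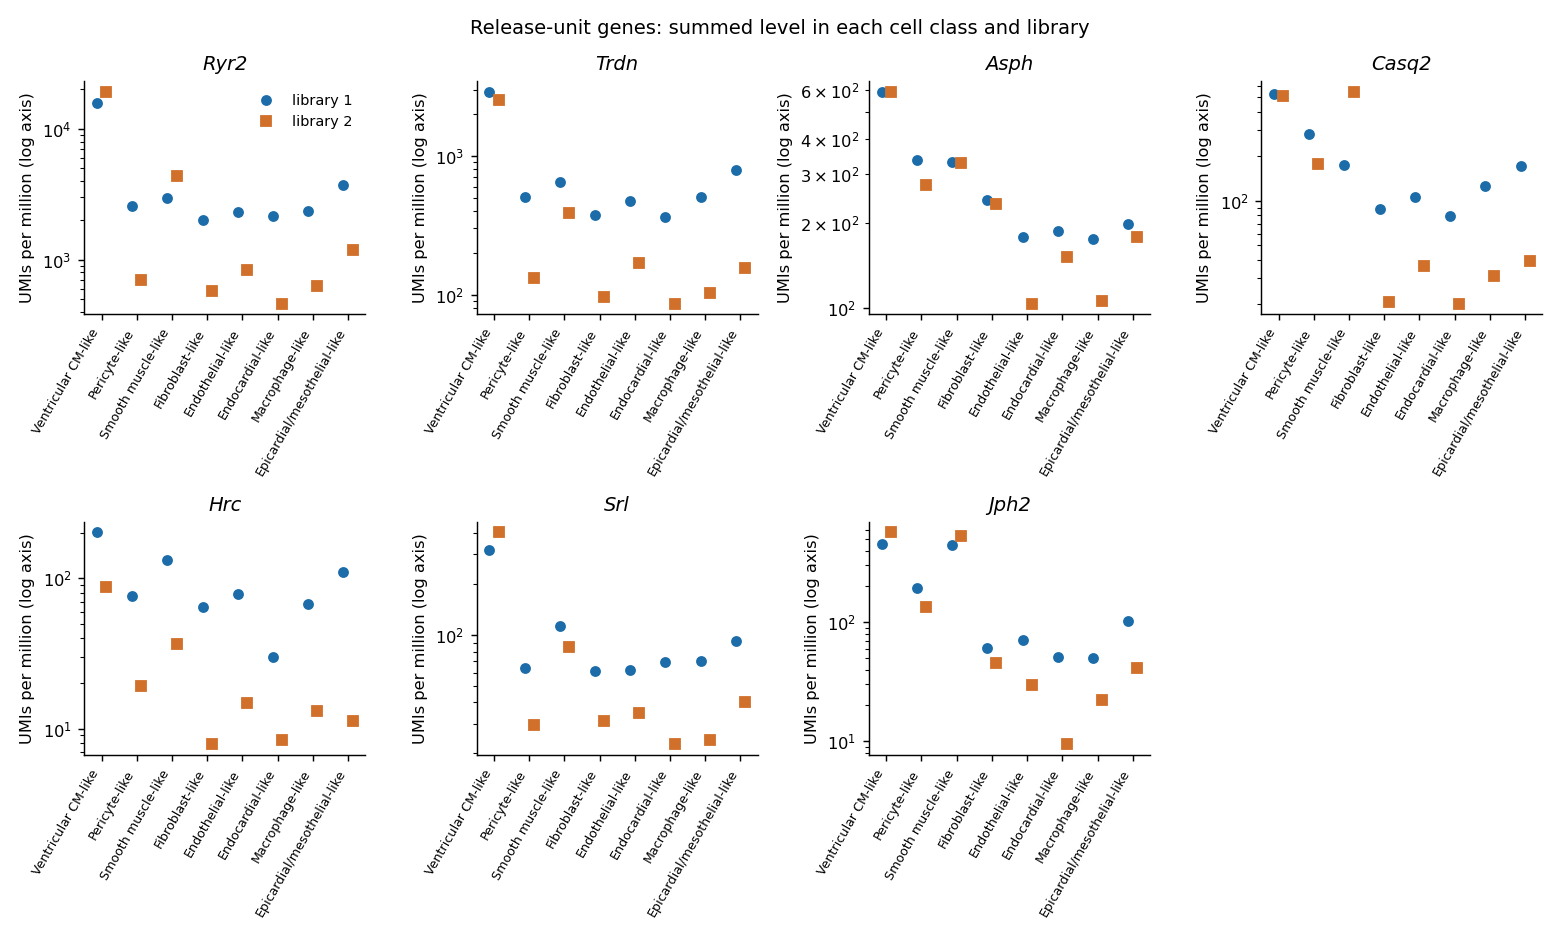
Level of each tested gene in CPM, on a log axis, in ventricular cardiomyocyte-like cells (left) and 7 non-myocyte classes; circles are library 1 and squares library 2. Ryr2 is at 15752 and 19258 in the ventricular class, and Casq2 and Jph2 have their next levels in pericyte-like and smooth muscle-like cells.

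Set beside the summed markers, the members differed. Ryr2 in the 6 tested non-myocyte classes was at 12.6% to 23.5% of its ventricular level in library 1 and 2.39% to 6.18% in library 2, below the marker share in every one of the 12 values. Trdn was at 12.5% to 27.3% and 3.41% to 6.65%, and its exact interval lay below the marker share in 7 of the 12 and above it in none. Asph was at 29.7% to 56.9% in library 1 and 17.4% to 46.4% in library 2, and its interval lay above the marker share in 11 of the 12. Hrc lay above in 11 of the 12, Srl in 4, Jph2 in 3 and Casq2 in 2, which were the pericyte-like values. These intervals cover counting error only and are no test between conditions. The marker sum is weighted to Ttn, which was at 21200 of 43529 CPM in ventricular cells with 5000 to 10000 UMIs of library 1. Shares of single markers were not compared, and the part of cardiomyocyte RNA in values above the summed share was not tested.

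**Figure D2:**
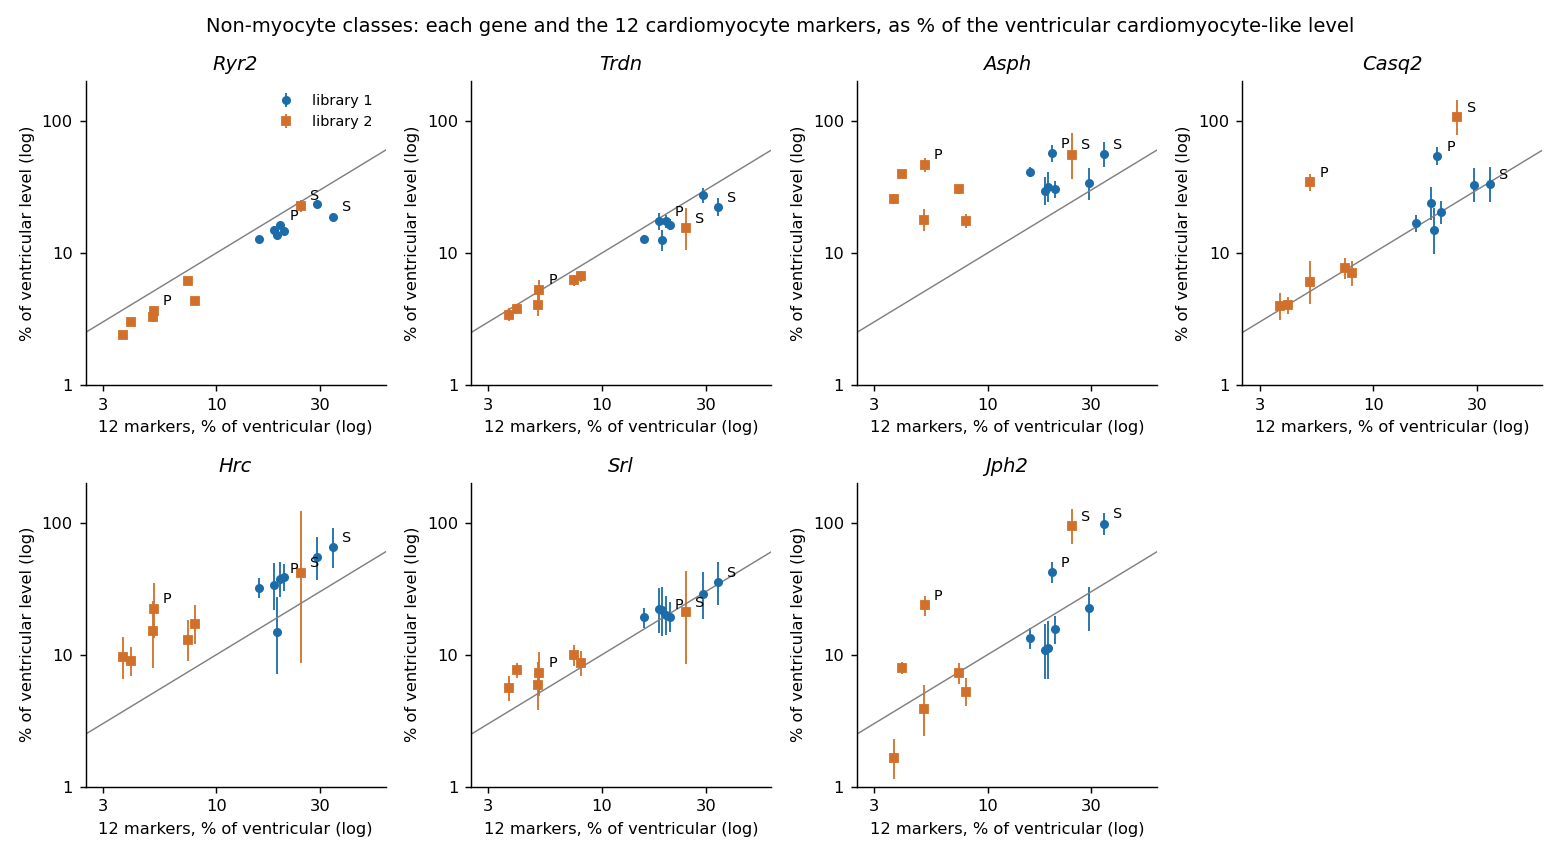
Level of each gene in a non-myocyte class as a percentage of its ventricular cardiomyocyte-like level (vertical, log axis, bars are 95% exact intervals of counting error) against the same percentage for the 12 summed cardiomyocyte markers (horizontal, log axis); the line marks equal shares, P is pericyte-like and S smooth muscle-like. Ryr2 and Trdn lie on or under the line, while pericyte-like Casq2, at 54.1% and 34.4%, and Jph2, at 42.0% and 23.6%, lie above it.

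Pericyte-like cells, which wrap capillaries, carried 3 members at a higher level than the other 5 tested non-myocyte classes. Casq2 was at 284 and 176 CPM in pericyte-like cells of libraries 1 and 2, against 78.5 to 173 CPM and 20.2 to 39.3 CPM in the others. Jph2 was at 192 and 134 CPM there, against 49.7 to 103 CPM and 9.41 to 45.1 CPM. Asph was at 336 and 275 CPM, against 175 to 243 CPM and 103 to 235 CPM. Pericyte-like values were above every other tested non-myocyte class within each library for all 3 genes. Casq2 was higher by 2.04 on the log2 scale (SE 0.29, edgeR adjusted p = 6.51e-05), with 1.37 in library 1 alone and 2.62 in library 2 alone. Jph2 was higher by 2.06 (SE 0.28, edgeR adjusted p = 3.60e-05), with 1.56 and 2.36 in the libraries alone. Asph was higher by 0.83 (SE 0.15, edgeR adjusted p = 5.83e-04), with 0.78 and 0.90. In this comparison 11.8% of the 13466 genes were called higher. Cardiomyocyte markers in pericyte-like cells were at 19.7% and 5.14% of their ventricular level, within the range of the other classes.

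Shares of cells with a UMI, after thinning each cell to 1000 UMIs, were also higher than in fibroblast-like cells. Casq2 had a UMI in 21.5% of pericyte-like cells of library 1 and 14.5% of those of library 2, against 8.10% and 2.10% of fibroblast-like cells. For Jph2 the shares were 18.0% and 12.1% of pericyte-like cells, against 5.18% and 4.07% of fibroblast-like cells. Without thinning Casq2 stood at 31.2% and 28.2% of pericyte-like cells, against 17.1% and 6.05% of fibroblast-like cells, at median depths of 1534 and 2269 UMIs against 1981 and 3116. Ryr2, Trdn, Srl and Hrc were not called in pericyte-like cells, although with doublets kept Ryr2 (0.70), Trdn (0.60) and Srl (0.59) passed as higher.

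Smooth muscle-like cells, with 82 cells in library 1 and 21 in library 2, were too few for that test. Jph2 was at 447 and 534 CPM in them, or 97.7% and 93.9% of the ventricular level, beside a marker share of 34.3% and 24.4%. Casq2 was at 175 and 546 CPM, or 33.3% and 107% of the ventricular level, with an interval of 77.8% to 143% in library 2. Jph2 was thus near the ventricular level in both libraries and Casq2 in library 2. Asph was at 55.9% and 55.4%, and Ryr2 at 18.8% and 22.8%, no higher than the marker share.

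The other 5 calls among non-myocytes concerned Asph, Jph2 and Ryr2, and each was lost under at least 1 alternative. Fibroblast-like cells had 243 and 235 CPM of Asph and were higher by 0.40 (edgeR adjusted p = 0.0476), where 17.0% of genes were called higher. Endothelial-like cells, at 179 and 103 CPM, differed by -0.50 (edgeR adjusted p = 0.0338, 10.7% of genes lower), and macrophage-like cells, at 175 and 105 CPM, by -0.61 (edgeR adjusted p = 0.0140, 16.5% of genes lower). In library 1 alone these Asph differences were 0.22 in fibroblast-like, -0.31 in endothelial-like and -0.34 in macrophage-like cells, and in library 2 alone 0.63, -0.79 and -0.76. Endocardial-like cells had 51.3 and 9.41 CPM of Jph2 and were lower (log2 difference -1.76, SE 0.41, edgeR adjusted p = 0.00492, 7.59% of genes lower), with -0.71 in library 1 alone and -2.18 in library 2 alone. Epicardial or mesothelial-like cells had 3698 and 1191 CPM of Ryr2 and were higher by 0.82 (SE 0.30, edgeR adjusted p = 0.0414, 21.6% of genes higher), and that class also had the highest marker share among the 6 tested classes in library 1, 29.2%. With doublets kept all 3 lower calls and those of fibroblast-like Asph and epicardial Ryr2 were lost, and Ryr2 there was at -0.05. That alternative also changed the classes averaged, since lymphatic endothelial-like cells, 52 and 216 with doublets kept, then reached the minimum of 50. The other 34 of the 42 class differences lay between -1.08 and 0.67 and were not called.

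Within ventricular cardiomyocyte-like cells the channel was counted in almost every cell. After thinning to 1000 UMIs, 6716 of 6717 cells in library 1 and all 2160 in library 2 had a Ryr2 UMI, with 865 and 16 shallower cells left out. The median was 15 Ryr2 UMIs per cell in library 1 (5th to 95th percentile 7 to 26) and 18 in library 2 (8 to 32). The variance was 2.23 and 2.93 times the mean for Ryr2, and 1.01 to 1.22 times for Trdn, Asph, Casq2, Hrc, Srl and Jph2. Trdn had a UMI in 93.1% and 90.0% of these cells, Asph in 42.2% and 45.7%, and Casq2 in 40.4% and 38.6%. Hrc had one in 19.7% of cells in library 1 and 8.24% in library 2, against 5.83% and 0.755% of fibroblast-like cells. For all 7 tested members the ventricular share lay above that of each non-myocyte class in both libraries, smooth muscle-like cells not being among the classes compared.

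The 4 ventricular clusters differed in level for several members. A cluster led by Nppb and Ankrd1 had the highest Casq2, 556 and 587 CPM, the highest Hrc, 239 and 117 CPM, and the highest Jph2, 498 and 637 CPM, in both libraries. Its cells were also the shallowest of these clusters, with medians of 3359 and 5871 UMIs. Along depth, as given below, Hrc was higher and Jph2 lower in shallower cells, and the part of depth in these levels was not tested. The smallest cluster, led by Sema3a and Slit2 with 228 and 37 cells, had the lowest Ryr2, 13606 and 14885 CPM, the lowest Hrc, 155 and 40.7 CPM, and the lowest Jph2, 358 and 337 CPM. It was also lowest for Casq2, at 455 and 364 CPM, Asph, at 530.3 and 413 CPM, and Srl, at 265 and 369 CPM. The clusters were made from these cells, so these are descriptions with no test.

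Hrc and Ryr2 differed in opposite directions along depth. In ventricular cardiomyocyte-like cells with 500 to 2000, 2000 to 5000, 5000 to 10000 and at least 10000 UMIs (1209, 3293, 2423 and 657 cells), Hrc was at 320.3, 247, 189 and 157 CPM in library 1. In library 2, with 25, 447, 1099 and 605 cells, it was at 228, 116, 92.5 and 75.8 CPM. Ryr2 in the same bins was at 10888, 14522, 16293 and 16902 CPM in library 1 and at 13534, 17361, 18760.2 and 20124 CPM in library 2. Hrc was thus lower, and Ryr2 higher, at every step to deeper cells in both libraries, a description with no test. The lowest bin of library 2 is thin, and Hrc and Ryr2 keep their order over the other 3.

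Other transcripts differed along the same bins. Mb, the myoglobin gene, was at 1215, 442, 341 and 279 CPM in library 1 and 874, 316, 242 and 179 CPM in library 2, lower at every step like Hrc. Malat1, a nuclear RNA, was at 39250.2, 58433, 63282 and 65654 CPM in library 1 and 23152, 43974, 51045 and 52020 CPM in library 2, higher at every step like Ryr2. Jph2 was also higher at each step, with 313, 409, 462 and 526 CPM in library 1 and 418, 536, 564 and 580 CPM in library 2. Asph lay between 556 and 623 CPM and Casq2 between 500.2 and 535 CPM over the bins of library 1. In library 2 Asph was at 722, 589, 588 and 595 CPM and Casq2 at 760.3, 523, 514 and 507 CPM, with the thin lowest bin highest for both. The part of RNA quality or of nuclear and cytosolic RNA in these trends was not tested. Taken bin by bin, Hrc was still lower in library 2 than in library 1 in every one, although in the lowest bin the counting intervals overlap.

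**Figure D3:**
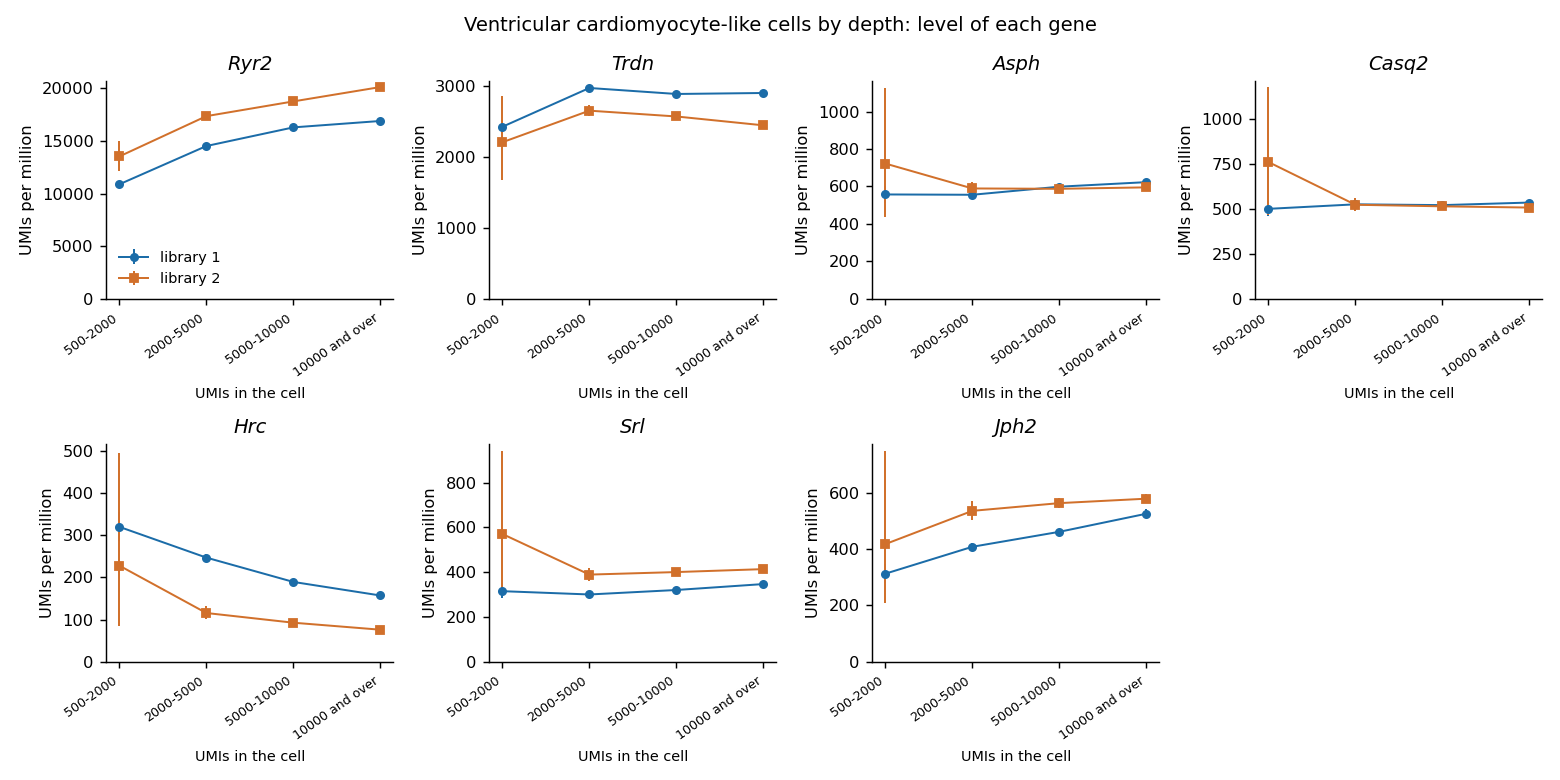
Level of each gene in CPM in ventricular cardiomyocyte-like cells sorted by their UMI total, with 95% exact Poisson intervals; circles are library 1 and squares library 2. Hrc is lowest in the deepest bin, at 157 and 75.8, Ryr2 is highest there, at 16902 and 20124, and the wide intervals on the left of library 2 come from 25 cells.

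Atrial-type cardiomyocytes could be set beside ventricular ones by value only, since library 2 held 7 of them. In library 1, Ryr2 was at 10418 CPM in atrial-type cells and 15752 CPM in ventricular cells, a log2 ratio of -0.60 (95% exact interval -0.64 to -0.55). In library 2 it was at 19119 CPM in the 7 atrial-type cells and 19258 CPM in ventricular cells, a ratio of -0.01. The lower Ryr2 of library 1 was therefore not seen in library 2. Trdn was at 1816 and 1371 CPM in atrial-type cells of libraries 1 and 2, against 2900.1 and 2517 CPM in ventricular cells, and its interval excluded equal levels in both (-0.78 to -0.57 and -1.30 to -0.48). Jph2 was at 365 and 290.1 CPM in atrial-type cells, against 457 and 568 CPM in ventricular cells, with intervals of -0.56 to -0.10 and -1.97 to -0.13. The 12 summed markers of atrial-type cells were at 104.7% of the ventricular level in library 1 and 74.6% in library 2. Beside them, Jph2 was at 79.9% (67.8% to 93.5%) in library 1 and 51.0% (25.5% to 91.3%) in library 2, where its interval includes the marker share. Trdn, at 62.6% (58.3% to 67.2%) and 54.5% (40.7% to 71.5%), was below it in both. These intervals cover counting error and not the spread between cells or libraries.

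For the other members the libraries differed or the intervals were wide. Asph was at 360.3 and 554 CPM in atrial-type cells, against 591 and 592 CPM in ventricular cells, and Casq2 at 469 and 211 CPM, against 525 and 512 CPM. Srl was at 337 and 369 CPM in atrial-type cells, against 320.2 and 405 CPM in ventricular cells. Hrc was at 277 CPM in atrial-type cells and 203 CPM in ventricular cells of library 1, a log2 ratio of 0.45 (0.18 to 0.71). In library 2 it had 0 UMIs in the 7 atrial-type cells (95% exact interval 0 to 97.3 CPM) and 87.1 CPM in ventricular cells, a level that this interval includes. Of the 7 members 5 were lower by value in library 1, none of them 2-fold, and the interval of Casq2 (-0.37 to 0.04) included equal levels. Among 3858 genes with at least 20 counts there, 3.53% were at least 2-fold lower, 20.5% at least 2-fold higher, and the median log2 ratio was -0.01.

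Another release channel marked the atrial-type cluster. Ryr3, which encodes a ryanodine receptor that is minor in most muscle, was at 602 and 686 CPM in atrial-type cells, against 3.15 and 0.653 CPM in ventricular cells. It was 1 of the 10 genes that lead that cluster, so this is a description, and it was chosen after its values were seen.

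**Figure D4:**
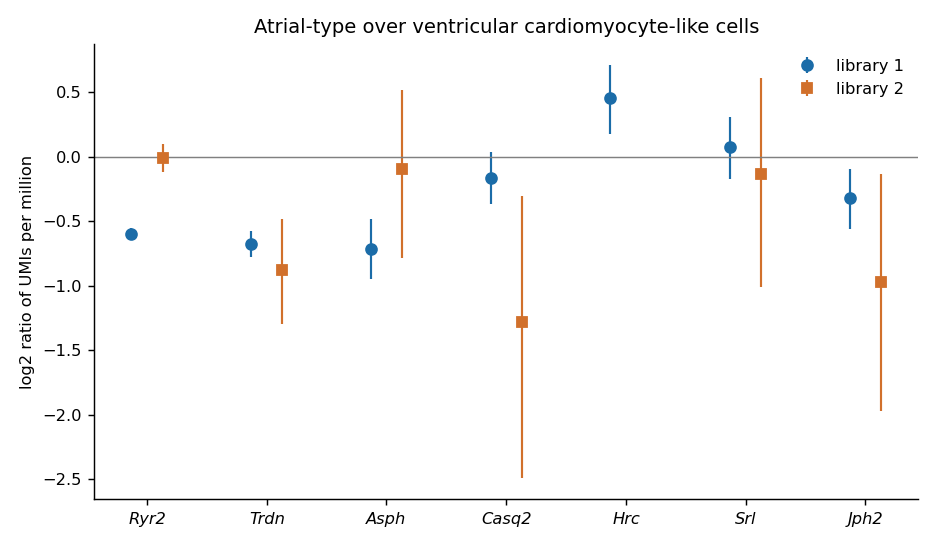
Log2 ratio of CPM in atrial-type over ventricular cardiomyocyte-like cells for each gene, with 95% exact intervals of counting error; circles are library 1 (78 atrial-type cells) and squares library 2 (7 cells). Trdn and Jph2 lie below 0 in both libraries, Ryr2 only in library 1, and Hrc has no point in library 2 because it had 0 UMIs there.

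A transcript named GFP was in the table, and what carried it into the cells is not given in the labels. It had a UMI in 15.9% of ventricular cardiomyocyte-like cells of library 1 and 22.9% of those of library 2, against 0.634% and 0.543% of fibroblast-like cells, at median depths of 4299 and 7320 UMIs against 1981 and 3116. Each of the 1207 and 499 ventricular cells with GFP was paired with a cell of the same library without it and of nearly the same depth, giving medians of 6547 against 6548 UMIs in library 1 and 9686 against 9684 in library 2. A cell without a GFP UMI may still carry GFP RNA that was not captured.

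Hrc was the 1 member called in this comparison, lower in cells with GFP. It was at 156 CPM in cells with GFP and 191 CPM in cells without GFP of library 1, and at 56.0 CPM with GFP and 93.1 CPM without GFP in library 2. Cells with GFP were lower in both libraries and the counting intervals do not overlap within either. The log2 difference was -0.49 (SE 0.08, edgeR adjusted p = 2.90e-07), with -0.29 in library 1 alone and -0.73 in library 2 alone. Of 12605 genes tested, 1.92% were called lower and 0.666% higher. The call was lost with DESeq2 (adjusted p = 0.167) and without the library block (adjusted p = 1.00), and it was kept when cells were matched within the same cluster (-0.48, edgeR adjusted p = 1.48e-08).

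The test rests on 1 residual degree of freedom among 4 sums, so its p-values lean on spread shared over genes. Mb, which followed Hrc along depth, was at 316 and 198 CPM in cells with GFP, against 333 and 207 CPM in cells without GFP. It was lower by value in both libraries and not called (-0.11, edgeR adjusted p = 0.533). Tnni3 (0.02) and Myl2 (0.05), like Mb picked by hand, were not called either. The part of RNA quality or of nuclear and cytosolic RNA in the Hrc difference was not tested. The cluster makeup differed, the cluster led by Uty and Gm12295 being 48.7% of cells with GFP and 38.5% of cells without GFP in library 2, and 11.7% against 9.28% in library 1. Rpl10a, a ribosomal protein gene, was at 228 and 225 CPM in cells with GFP, against 114 and 93.9 CPM in cells without GFP (1.07, edgeR adjusted p = 3.94e-32), and Gt(ROSA)26Sor, a transcript of the ROSA26 locus, at 121 and 167 CPM, against 78.7 and 80.7 CPM (0.77, edgeR adjusted p = 3.59e-17). Both were chosen after their values were seen. Ep300, the gene of p300, and Crebbp, that of CBP, differed by 0.07 and 0.08 and were not called (edgeR adjusted p = 0.798 and 0.706). A count for a whole gene does not show whether its floxed part was removed, which was not tested.

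No other member passed the threshold. Ryr2 was at 16640.0 and 20259 CPM in cells with GFP, against 16175 and 19629 CPM in cells without GFP, a log2 difference of 0.00 (95% interval from the SE, -0.13 to 0.13, edgeR adjusted p = 0.997). Trdn was at 2809 and 2307 CPM in cells with GFP, against 2962 and 2607 CPM in cells without GFP, a difference of -0.17 (-0.29 to -0.04, edgeR adjusted p = 0.157). It was lower with GFP in both libraries and passed the threshold only when genes of low count were left in (edgeR adjusted p = 0.0471). Asph was at 582 and 571 CPM with GFP, against 615 and 604 CPM without GFP, and differed by -0.12 (-0.24 to 0.00). Casq2 was at 529 and 489 CPM with GFP, against 520.1 and 539.6 CPM without GFP, and Jph2 at 497 and 534 CPM, against 481 and 602 CPM. Both were slightly higher with GFP in library 1 and lower in library 2, with intervals of -0.22 to 0.03 and -0.22 to 0.02. Srl was at 327 and 406 CPM with GFP, against 321 and 407 CPM without GFP (-0.15 to 0.09). Fkbp1b had 2 UMIs with GFP and 0 without GFP in each library.

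**Figure D5:**
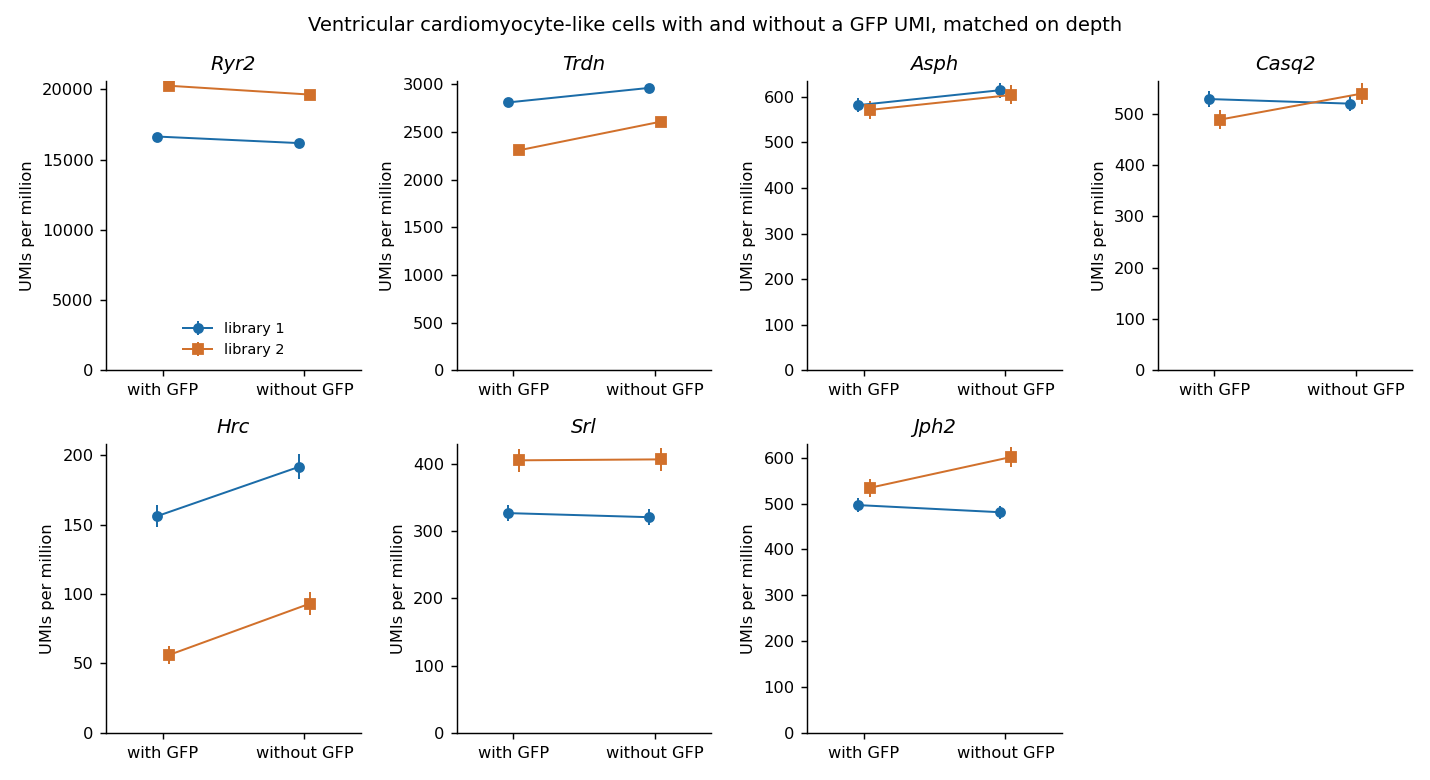
Level of each gene in CPM in ventricular cardiomyocyte-like cells with a GFP UMI (left) and without one (right), matched on depth, with 95% exact Poisson intervals; circles are library 1 and squares library 2. Hrc is lower with GFP in both libraries, at 156 against 191 and 56.0 against 93.1.

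Other calcium genes were counted from 4 lists by role, 47 genes of which 42 were tested between ventricular cardiomyocyte-like cells and non-myocytes. Of the trigger and dyad list, the genes of the L-type channel, the membrane and its cleft, 8 of 11 tested were higher and 2 lower, with a median of 2.74, beside 31.6% higher, 33.4% lower and a median of -0.07 over all genes. Cacna1c, the pore of the L-type channel, was at 4.17 and Cav3, caveolin 3, at 3.28, while Bin1, which shapes membrane tubules, was at -5.29 and Cacna1d at -0.13 was not called. Against the same shares, 9 of 15 regulators of the channel were higher and 6 lower (median 0.60), with Akap6, an anchor of protein kinase A, at 3.81, Speg at 3.79 and Pde4d at 3.48 differing most.

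Uptake and extrusion genes were higher in 3 of 7 and lower in 2, near the shares of 31.6% and 33.4% over all genes. Pln, which inhibits the reticulum pump and is also 1 of the naming markers, was at 3.07 and the pump Atp2a2 at 2.93, while Atp2b4, a pump of the cell membrane, was at -5.03, and Sln (-0.43) and Atp2b2 (0.43) were not called. Of other release channels and reticulum buffers, 1 of 9 was higher, Itpr1 at 0.51, and 3 were lower, Itpr3 at -4.03, Stim1 at -3.81 and Calr at -1.22, which is close to the all-gene share for lower genes and below it for higher ones. Between cells with and without GFP, 2 of 10 trigger and dyad genes were lower, Dysf (-0.31, edgeR adjusted p = 3.84e-04) and Tmem38a (-0.26, edgeR adjusted p = 0.0102), and none of the other 31 genes passed, where 1.92% of all genes were lower. Both calls were lost with DESeq2 and without the library block. Median log2 differences with GFP were -0.13 for trigger and dyad genes, -0.13 for other release channels and buffers, -0.09 for uptake and extrusion and -0.07 for regulators. The members had a median of -0.10, and all genes tested had 0.00.

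Across the 14 sums of 7 classes and 2 libraries, the genes with the most similar profile were named by Pearson's r of log2(CPM + 1), with no test, since the sums share libraries and cardiomyocyte RNA. For Ryr2 they were Tnni3k (r = 0.997), Myocd and Rbm20, and for Srl Nexn (r = 0.997), Tnni3k and Kcnn2. Trdn was closest to Tnnt2 (r = 0.995), Myom2 and Mybpc3. Hrc was closest to Hfe2 (r = 0.979), Fabp3 and Csrp3, and Casq2 to Akap6 (r = 0.987), Art3 and Cdh2. Jph2 was closest to Cacna1c (r = 0.984), Garem and Synpo2, and Asph to Malat1 (r = 0.969), Fam73b and Cacna2d1.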

How the data were processed

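Single-cell RNA was measured in 2 libraries made with the 10x 3′ v3 kit. The authors deposited UMI counts per gene and barcode, which the file headers credit to Cell Ranger 6.0.0. Builds GRCm38 and mm10 and the tools fastp, Trimmomatic, Seurat and edgeR are listed in the submitters' processing notes. The sources used here do not give whether introns counted. Members and lists were chosen with earlier results of these data known.

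Barcodes with at least 500 UMIs, 200 genes and at most 25% mitochondrial counts were kept (22137). Simulated doublets marked 12.6% and 10.5% of barcodes in libraries 1 and 2, and these and clusters with at least 40% marked were removed. Cells were clustered with leidenalg 0.10.2 (resolution 1, 30 components, 2000 variable genes, 15 neighbours, listed genes left out) in Python 3.11.15. Classes were named from marker lists; the scoring rule and the hepatocyte and haemoglobin lists were set after the data were seen. CD45 beads can set the class shares, which are not compared.

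Counts were summed per library and class with at least 50 cells in each library and fitted in edgeR 4.0.16 (R 4.3.3; TMM, filterByExpr, quasi-likelihood) with library as a block, over 14 sums for classes and 4 for GFP. The numbers pair the sums because both come from the same library. DESeq2 1.42.0 was an alternative. The atrial-type class was too small for the planned test and is given by value. Intervals are 95% exact and cover counting error only; for the unnamed clusters, a count of 0 was taken to allow 3 counts. Of these steps only the edgeR fit was tested on simulated counts, which held no difference between libraries. Clustering, naming and matching on depth were not tested in that way. All 8 members are named in each comparison; of each other list, the 3 largest differences past the threshold, and those not past it where 3 or fewer.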

Additional observations from a re-analysis of the deposited data

Results flagged for a closer look

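Ryr2 was counted, above what a count of 0 allows, in unnamed clusters that are outside the comparisons as reported; the first 4 below entered only the alternative that adds unnamed clusters with cardiomyocyte markers to the ventricular class. A cluster led by Prc1 and Mki67, genes of dividing cells, had 16030.4 CPM of Ryr2 in library 1 and 19234 CPM in library 2. A cluster led by Alb and Apoa2, genes of hepatocytes, had 4927 CPM in library 1, the library that held all of its cells. A cluster led by Gm26870 and Gm10800 had 11900.3 and 14409 CPM, and a cluster led by the haemoglobin gene Hba-a1 had 5355 and 5409.7 CPM. A cluster led by Wdfy4, Arhgap15 and Ptprc, genes of leukocytes, had 3142 and 966 CPM. There the 12 summed cardiomyocyte markers were at 10721.5 and 3614 CPM, against 43290 and 50535 CPM in ventricular cardiomyocyte-like cells. In the cluster led by Alb they were at 29239 CPM. The part of cardiomyocyte RNA in these Ryr2 values was not tested.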

How the results depend on the processing

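All 7 tested members were higher in ventricular cardiomyocyte-like cells under each alternative. Among non-myocyte classes, the 5 higher calls became 3 with a minimum of 20 cells, with DESeq2 and with no replicate block, and the 3 lower calls became 0 with doublets kept and with no replicate block and 8 with no filter on low counts. Of members lower with GFP, 1 in the fit reported, 0 passed with DESeq2 or no replicate block and 2 with no filter. Of other release channels and reticulum buffers, the 1 higher gene became 0 with library totals or no replicate block and 2 with no filter, and the 3 lower became 8 with library totals. The 2 lower trigger and dyad genes with GFP became 1 with library totals and 0 with DESeq2 or no replicate block. The cause was not tested.

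Of the 34 class differences not called, 21 changed sign and 9 passed the threshold under at least 1 alternative. Keeping doublets also added lymphatic endothelial-like cells to the classes. Among called differences the sign changed for epicardial or mesothelial-like Ryr2 with doublets kept (-0.050). With GFP it changed for Ryr2, which is near 0 throughout: -0.0018 with DESeq2, -0.0018 with its size factors, -0.00072 matched within clusters, -0.0016 with no filter, -0.00093 with no replicate block and -0.0025 with a stricter cell filter. It also changed for Srl with library totals (0.012) and no matching (0.042), and for Jph2 with no matching (0.041). Leaving out a library gave values only, with no test. Scaling and tool alternatives for atrial-type cells were not run, since there was no test. With 1 group and 2 libraries, knockout and control cannot be compared, and few atrial-type cells limit library 2.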

Other observations

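In the cluster led by Prc1 and Mki67, with 255 cells in library 1 and 59 in library 2, the other members were near their ventricular levels. Trdn was at 2967 and 2609 CPM in libraries 1 and 2, Casq2 at 551 and 482 CPM, and Jph2 at 525 and 523 CPM. These cells entered the tests only under the alternative that adds unnamed clusters with cardiomyocyte markers to the ventricular class.

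The cluster led by Hba-a1, with 174 and 38 cells, combined low Ryr2 with high Hrc. Hrc was at 569 and 505.6 CPM there, against 203 and 87.1 CPM in ventricular cardiomyocyte-like cells, while Trdn was at 1199 and 1175 CPM, against 2900.1 and 2517 CPM. Its 12 summed cardiomyocyte markers were at 71572 and 78580 CPM, against 43290 and 50535 CPM in ventricular cardiomyocyte-like cells.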
